A study of Homo sapiens with 6 samples.

Results

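Retinal pigment epithelium (RPE) cells were 235 of 43757 kept cells in single-cell RNA sequencing of human retinal organoid fragments, and they were found in 3 of the 6 samples. A cell barcode was kept with at least 1000 UMIs (unique molecular identifiers, a count of captured RNA molecules), at least 500 genes and at most 20% of its UMIs from mitochondrially encoded genes. A kept cell was counted as RPE when PMEL, TYRP1 and MLANA together gave at least 4 UMIs, with at least 2 of these pigment genes detected, and when NRL and PDE6H, which mark rods and cones, gave at most 1 UMI each. The values of these 5 genes therefore chose the cells and are given only as a description.

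The transplanted samples were fragments injected under the retina of normal dog eyes and collected 3 days later. The cultured samples held fragments of the same organoid batches that had stayed in a dish for 3 days. All fragments came from the established human embryonic stem cell line WA09, which carried a tdTomato reporter for CRX, a photoreceptor gene, and the organoids were between 113 and 126 days old. Each of 3 independent experiments, called Sets, gave 1 transplanted and 1 cultured sample, so that every fragment derives from 1 cell line and the Set number pairs the samples.

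RPE is the single layer of pigmented epithelium behind the photoreceptors. It makes melanin in melanosomes, an organelle built on fibrils of PMEL protein, in which the enzymes TYR, TYRP1 and DCT act. It also turns all-trans retinoid back into the 11-cis form that photoreceptors need, engulfs shed photoreceptor outer segments, and lays down part of Bruch's membrane. In retinal organoids RPE usually forms pigmented patches at the edge of the neural retina.

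Some promoters of pigment genes hold a short element, the M-box, which the transcription factor MITF is known to bind. Promoters with its letters are shown because the pigment genes were high together in these cells. The letters searched were TCATGTG, which reads CACATGA on the other strand, within 250 bases before and 50 bases after each start in RefSeq GRCh38.p14. Of the 20 genes in the pigment list 16 had a window, and the letters were in 7 of their 29 windows (24.1%), against 1026 of all 35116 windows (2.92%). By gene, the letters were in 7 of these 16 (43.75%), against 981 of all 27305 genes (3.59%), so most of the 16 lacked them. They were in 1 of 28 windows of the visual cycle list and in 0 of 19 windows of the matrix list. A match is a run of letters, not a measured site. The 250 bases before the start are printed 5′ to 3′ on the gene's strand, with the match in capitals, for TYR (chr11:89177625-89177874, plus strand), TYRP1 (chr9:12693135-12693384, plus strand), DCT (chr13:94479683-94479932, minus strand) and GPNMB (chr7:23246525-23246774, plus strand).
TYR: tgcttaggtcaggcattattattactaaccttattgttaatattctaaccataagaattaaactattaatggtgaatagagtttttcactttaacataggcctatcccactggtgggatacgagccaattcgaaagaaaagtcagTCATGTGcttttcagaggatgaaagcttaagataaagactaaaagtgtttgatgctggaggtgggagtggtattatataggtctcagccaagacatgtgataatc
TYRP1: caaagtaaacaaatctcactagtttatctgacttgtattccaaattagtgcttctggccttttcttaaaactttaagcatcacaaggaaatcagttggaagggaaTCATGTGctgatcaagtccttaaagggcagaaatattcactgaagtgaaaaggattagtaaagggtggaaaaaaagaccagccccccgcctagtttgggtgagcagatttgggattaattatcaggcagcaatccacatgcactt
DCT: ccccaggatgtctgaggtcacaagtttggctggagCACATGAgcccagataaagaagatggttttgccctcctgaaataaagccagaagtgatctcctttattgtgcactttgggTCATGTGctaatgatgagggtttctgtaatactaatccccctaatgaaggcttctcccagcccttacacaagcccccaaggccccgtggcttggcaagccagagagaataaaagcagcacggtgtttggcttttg
GPNMB: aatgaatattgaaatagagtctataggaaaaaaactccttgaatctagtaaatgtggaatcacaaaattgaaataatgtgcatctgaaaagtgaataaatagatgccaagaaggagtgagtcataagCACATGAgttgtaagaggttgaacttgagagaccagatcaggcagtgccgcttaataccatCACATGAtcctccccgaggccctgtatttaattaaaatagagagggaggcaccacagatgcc
The match in TYR begins 105 bases before the start and the match in TYRP1 145 bases before it. DCT has matches 215 and 135 bases before its start, and GPNMB has matches 123 and 62 bases before its start. TSPAN10 and GPR143 of the same list also hold the letters.

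Depth differed between samples. The deposited matrices held 9013, 1366 and 7336 barcodes in transplanted samples 1, 2 and 3, against 19933, 11801 and 2300 in cultured samples 1, 2 and 3. Total UMIs ranged between 6850189 and 45281930 in the transplanted samples and between 8000032 and 108222149 in the cultured samples. Any 2 libraries shared at most 54 kept barcodes, and no barcode of an RPE cell was shared. Per the file headers the authors used version 6.0.2 of Cell Ranger for Set 1 and version 7.1.0 for the other Sets. A difference of cultured 2 from cultured 1 or from transplanted 1 therefore cannot be told apart from the Set and the software version.

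RPE cells were a small share of every sample that held them. They were 72 of 7809 kept cells in transplanted 1 (0.922%, 95% Clopper-Pearson interval 0.722 to 1.16). They were 127 of 17899 in cultured 1 (0.710%, 0.592 to 0.844) and 36 of 10652 in cultured 2 (0.338%, 0.237 to 0.468). None was found among 694 kept cells of transplanted 2, 4818 of transplanted 3 or 1885 of cultured 3. The upper limits of the same 95% Clopper-Pearson interval were 0.530%, 0.0765% and 0.196% there. These intervals and limits cover counting error only. The share averaged 0.307% ± 0.532 in transplanted samples and 0.349% ± 0.355 in cultured samples (SD, n = 3 each), a difference of -0.0418 percentage points. An exact two-sided permutation test gave p = 1, where 3 against 3 samples cannot give less than 0.1. Within Sets 1, 2 and 3 the difference was 0.212, -0.338 and 0 points, so the direction was not the same in every Set. Cells with enough pigment UMIs that the limit on NRL and PDE6H removed numbered 35 in transplanted 1, 39 in cultured 1 and 37 in cultured 2. Just inside the rule, with a pigment sum of 4, lay 2 cells of transplanted 1, 8 of cultured 1 and 1 of cultured 2. Just outside it, with a sum of 3, lay 5, 4 and 2 cells.

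Because the transplanted group had 1 sample with RPE cells, no test between transplanted and cultured RPE cells was possible. The levels below are in CPM, the usual depth-scaled count, of the UMIs summed over the RPE cells of a sample, from 699893 UMIs in transplanted 1, 803083 in cultured 1 and 581561 in cultured 2. Ratios compare transplanted 1 with cultured 1, the pair from the same Set, as log2 of CPM + 1, which understates the change of low genes. The values of cultured 2, which is of another Set and software version, stand beside them. They show how far these 2 cultured samples differ, Set and software version included. Intervals of a level are exact Poisson and those of a log2 ratio exact conditional binomial, both at 95% and for counting error only. In sums over cells, fewer cells with a transcript and less of it per cell cannot be told apart.

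Single RPE cells differed widely in depth and pigment RNA. The median RPE cell held 6170 UMIs in transplanted 1, 4816 in cultured 1 and 13410 in cultured 2, and its PMEL, TYRP1 and MLANA UMIs summed to 18, 13 and 35. The highest sums were 122, 100 and 422. The RPE cell with the most UMIs supplied 9.62% of the summed UMIs in transplanted 1, 4.72% in cultured 1 and 12.1% in cultured 2, so a few large cells weigh on the sums. TTR varied as much from cell to cell, with a median of 73 UMIs and a highest value of 720 in transplanted 1, 22 and 502 in cultured 1, and 57 and 1075 in cultured 2. TTR was detected in 70 of 72, 103 of 127 and 35 of 36 RPE cells, so cells without it were found mainly in cultured 1.

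**Figure D1:**
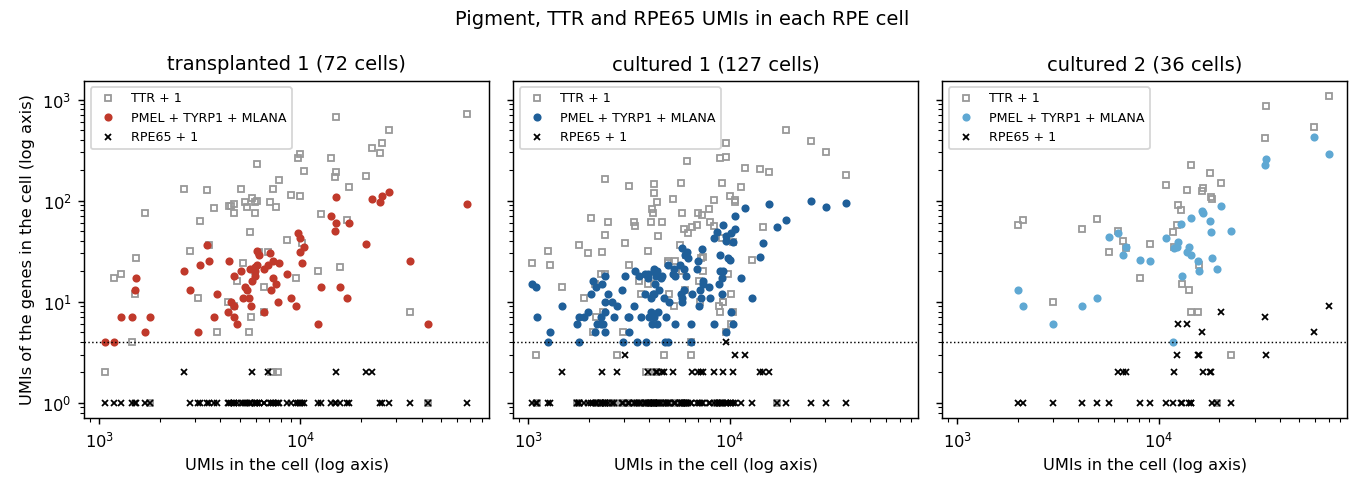
UMIs of the summed pigment genes (filled), of TTR (squares) and of RPE65 (crosses) in each RPE cell against the UMIs of that cell, on log axes, for transplanted 1, cultured 1 and cultured 2. The dotted line is the rule's minimum of 4 pigment UMIs. Pigment sums reach 122, 100 and 422 UMIs, while RPE65 is at 0 UMIs in most cells of transplanted 1 and cultured 1.

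Melanin genes that the rule did not use were high in the RPE cells as well. Of the 17 genes of the pigment list other than PMEL, TYRP1 and MLANA, 13 were higher in RPE cells than in the other kept cells of every sample, and 9 were at least 10-fold higher in every sample. Of all 32431 genes with a UMI in kept cells, 9.27% were higher in RPE cells of every sample, 39.4% were lower and 0.641% were at least 10-fold higher. Of the 3436 genes at 30 CPM or more in the RPE cells of every sample, 38.4% were higher and 33% lower in every sample. By the median of the 3 samples, 460 of these 3436 (13.4%) were at least 2-fold higher and 137 (3.99%) at least 2-fold lower than in other cells. Since the rule chose the cells on this contrast, nothing is read from these counts or from those of the lists below.

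PMEL, the melanosome fibril protein, stood at 1917 CPM in transplanted 1, 1654 in cultured 1 and 2584 in cultured 2, against 22.8, 9.12 and 22.4 CPM in the other cells of the same samples. TYR, tyrosinase, which catalyses the rate-limiting step of melanin synthesis, stood at 144, 157 and 432 CPM, against 2.43, 1.49 and 3.70 CPM in other cells. TRPM1, a channel gene that MITF regulates in melanocytes, stood at 431, 498 and 1577 CPM, against 5.52, 2.84 and 11.4 CPM. Both TYR and TRPM1 were highest in cultured 2 and close together in transplanted 1 and cultured 1. GPNMB, a melanosome and lysosome glycoprotein, gave 702, 1011 and 681 CPM, and TSPAN10, a tetraspanin that MITF also regulates, 254, 362 and 389 CPM. The melanosome transporters and receptor SLC45A2 (48.6, 39.8 and 39.5 CPM), SLC24A5 (67.2, 69.7 and 77.4 CPM) and GPR143 (75.7, 93.4 and 77.4 CPM) differed little between the samples. MLANA, although part of the rule, was detected in 3 of 72, 10 of 127 and 3 of 36 RPE cells, so that PMEL and TYRP1 made up nearly all of the rule's UMIs. MLPH, which couples melanosomes to myosin in melanocytes, had no UMI in any RPE cell.

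**Figure D2:**
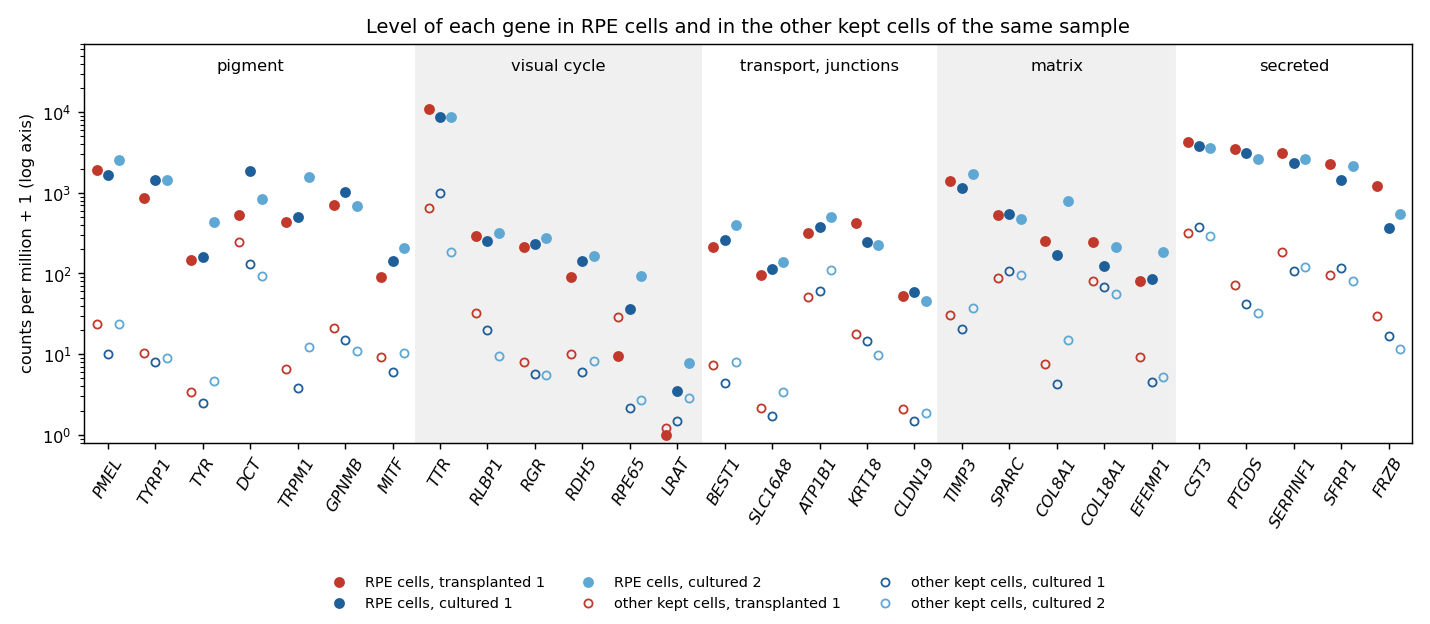
Levels of 28 genes, as CPM + 1 on a log axis, in RPE cells (filled circles) and in the other kept cells of the same sample (open circles), grouped by role, for transplanted 1, cultured 1 and cultured 2. RPE cells lie above the other cells for nearly every gene, and RPE65 in transplanted 1 (8.57 CPM in RPE cells, 28.1 CPM in other cells) runs the other way.

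DCT, dopachrome tautomerase, was the pigment gene that differed most between the Set 1 samples among those over the floor of 30 CPM. It was at 523 CPM (471 to 579) in transplanted 1, against 1868 CPM (1775 to 1965) in cultured 1 and 831 CPM in cultured 2, a log2 ratio of -1.83 (-2.01 to -1.67) to cultured 1 and -0.67 to cultured 2. Transplanted 1 was thus below both cultured samples, which also differed from each other by a log2 ratio of -1.17. DCT was uneven among RPE cells, with a median of 8 and a highest value of 95 UMIs in cultured 1, against 3 and 21 in transplanted 1. The highest DCT counts in cultured 1 were 95, 91, 61, 55, 44 and 41 UMIs. The cells with 95, 91, 55 and 41 had no TTR and no BEST1 UMI. Those with 61 and 44 held 9 and 191 TTR UMIs and 2 and 14 BEST1 UMIs. How far cells high in DCT and without TTR set the summed level was not tested, nor whether they form a group of their own. In the other cells DCT ran the other way, at 242 CPM in transplanted 1, against 130 CPM in cultured 1. TYRP1, also a melanin enzyme and part of the rule, was at 850 CPM in transplanted 1, against 1443 and 1438 CPM in cultured 1 and cultured 2. MITF, the transcription factor that drives melanin genes, was at 88.6 CPM in transplanted 1, against 141 and 205 CPM in the cultured samples.

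Of the retinoid genes, carriers and accessory enzymes were high and the isomerase itself was low. TTR, a carrier of retinol and thyroxine that RPE secretes, stood at 10903 CPM in transplanted 1, 8626 in cultured 1 and 8620 in cultured 2, against 639, 1003 and 185 CPM in other cells. RLBP1, which carries 11-cis retinoid and is shared with Müller glia, stood at 293, 254 and 316 CPM. RGR, an opsin of RPE and Müller glia, stood at 213, 228 and 272 CPM, and RDH5, the 11-cis retinol dehydrogenase, at 90.0, 141 and 163 CPM. None of these 4 genes differed by 2-fold between transplanted 1 and cultured 1.

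RPE65, the isomerase of the visual cycle, stood at 8.57 CPM in transplanted 1, against 34.9 CPM in cultured 1 and 92.9 CPM in cultured 2. In the other cells of these samples RPE65 stood at 28.1, 1.17 and 1.69 CPM, so RPE cells were the higher ones in both cultured samples. It was detected in 6 of 72, 23 of 127 and 18 of 36 RPE cells. After each cell was thinned to 1000 UMIs, RPE65 was detected in 1.39% of RPE cells of transplanted 1, 5.51% of cultured 1 and 5.56% of cultured 2, levels near that of 1 UMI, from which no change is read. The log2 ratio of transplanted 1 to cultured 1 was -1.91 (-3.59 to -0.72), from 6 and 28 UMIs, and the gene lay under the floor of 30 CPM. The ratio was 0.04 when every sample was reduced to 36 RPE cells. LRAT, which esterifies retinol for RPE65, had 0, 2 and 4 UMIs. Of the 18 genes in this list 8 were higher in RPE cells than in other cells of every sample and 4 were lower. CRABP1, a retinoic acid carrier of retinal neurons, was among the lower ones, at 550, 798 and 205 CPM in RPE cells, against 1536, 3342 and 2031 CPM in other cells.

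Other cells of transplanted 1 held more RPE65 than its RPE cells, at 28.1 CPM, and 52 kept cells outside the rule had at least 2 RPE65 UMIs. In 48 of these 52 cells no UMI of PMEL, TYRP1 or MLANA was found, and their median mitochondrial share was 0.520%, against 5.13% in the RPE cells of that sample. Whether they are human or dog cells was not tested.

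**Figure D3:**
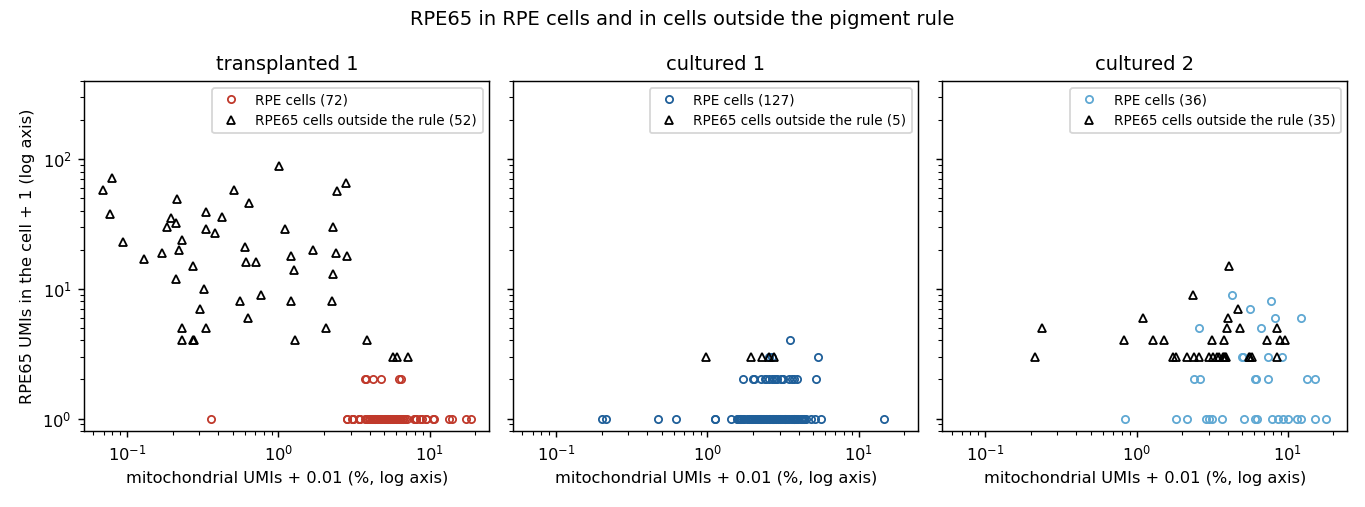
RPE65 UMIs + 1 against the percent of mitochondrial UMIs + 0.01 in each RPE cell (circles) and in each cell outside the rule with at least 2 RPE65 UMIs (triangles), on log axes. In transplanted 1 the 72 RPE cells hold at most 1 RPE65 UMI, and the 52 cells outside the rule hold up to 88 at lower mitochondrial shares.

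BEST1, a chloride channel of the basal RPE membrane, stood at 214 CPM in transplanted 1, 263 in cultured 1 and 397 in cultured 2, against 6.42, 3.36 and 7.04 CPM in other cells. SLC16A8, the RPE lactate transporter MCT3, stood at 94.3, 113 and 139 CPM, against 1.17, 0.724 and 2.35 CPM. CLDN19, the main claudin of RPE tight junctions, stood at 51.4, 58.5 and 44.7 CPM, against at most 1.08 CPM in other cells. Of the 23 genes for epithelial transport and junctions 18 were higher in RPE cells than in other cells of every sample, where 9.27% of all genes and 38.4% of those at 30 CPM or more were. The keratins KRT18 (424, 242 and 224 CPM) and KRT8 (254, 186 and 156 CPM), which form the filaments of simple epithelia, were higher in transplanted 1 than in both cultured samples by less than 2-fold. The log2 ratio of KRT18 to cultured 1 was 0.81 (0.55 to 1.08). KRT7, another simple epithelial keratin, was at 331 CPM in transplanted 1, against 171 CPM in cultured 1, and had no UMI in cultured 2.

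The matrix genes were led by TIMP3, an inhibitor of metalloproteinases that is deposited in Bruch's membrane. TIMP3 stood at 1406 CPM in transplanted 1, 1132 in cultured 1 and 1694 in cultured 2, against 29.4, 19.8 and 36.3 CPM in other cells. ELN, the elastin of the elastic layer of Bruch's membrane, stood at 903, 870 and 765 CPM, against 13.8, 13.3 and 9.67 CPM. The short-chain collagens COL8A1 (248.6, 167 and 782 CPM) and COL8A2 (70.01, 77.2 and 89.4 CPM) were at most 14.0 CPM in other cells. COL18A1, whose fragment endostatin inhibits vessel growth, was at 247 CPM (212 to 287) in transplanted 1, against 123 CPM (100 to 150) in cultured 1 and 215 CPM in cultured 2, a log2 ratio of 0.998 to cultured 1 but 0.20 to cultured 2. COL3A1, a collagen of fibroblasts, had no UMI in any RPE cell. In all, 13 of the 29 matrix genes were higher in RPE cells than in other cells of every sample and 11 were lower.

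Of the 30 genes for secreted regulators, 23 were higher in RPE cells than in other cells of every sample, beside the same 9.27% and 38.4% over all genes. SERPINF1, which encodes the neurotrophic and anti-angiogenic factor PEDF, stood at 3156, 2365 and 2634 CPM, against 182, 107 and 119 CPM in other cells. PTGDS, prostaglandin D synthase, stood at 3482, 3150 and 2609 CPM, and CST3, the protease inhibitor cystatin C, at 4271, 3792 and 3585 CPM. The Wnt antagonists SFRP1 (2268, 1438 and 2124 CPM) and SFRP5 (389, 280 and 316 CPM) were high in every sample. For phagocytosis and lysosomes, 15 of 20 genes were higher in RPE cells in every sample, among them the protease CTSD (787, 796 and 908 CPM) and the integrin subunit ITGAV (280, 296 and 550 CPM), while MERTK, the receptor that triggers outer segment uptake, was at 10.0, 19.9 and 31.0 CPM.

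By the largest ratio to other cells, the 20 leading genes of the RPE cells were TRPM1, OC90, SFRP5, HSD17B2, PTGDS, PRSS33, PLAC9, TYR, GPNMB, ELN, BEST1, TIMP3, CCNO, SLC16A8, COL8A2, TFPI2, FRZB, RGR, COL8A1 and SERPINE3. Their log2 ratios, as the median of the 3 samples, lay between 5.26 and 6.99. OC90, an otoconial protein gene, stood at 421, 826 and 1493 CPM, against 4.47, 3.37 and 13.3 CPM in other cells. GNGT1, known as a subunit of rod transducin, was also higher in RPE cells, at 271, 289 and 113 CPM, against 3.92, 12.3 and 31.1 CPM in other cells. CNGB3, a cone channel subunit, stood at 47.2, 32.4 and 169 CPM, against at most 11.2 CPM. The GNGT1 and CNGB3 values were singled out after they were seen. Of the 7 rod and 7 cone genes listed other than NRL and PDE6H, 6 and 5 were lower in RPE cells than in other cells of every sample, and 3 in each list had no UMI in any RPE cell. The rule's limit on NRL and PDE6H bears on these counts. RCVRN, the photoreceptor gene recoverin, was at 44.3, 47.3 and 70.5 CPM, against 935, 947 and 1259 CPM in other cells.

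Detection in RPE cells was set beside that in photoreceptor cells. These were kept cells with at least 2 UMIs of NRL and PDE6H together and none of the pigment genes. Leaving out cells with pigment UMIs also leaves out droplets that took up free RNA of RPE cells. The shares below therefore do not measure how much free RNA there was. In transplanted 1 TTR was detected in 97.2% of RPE cells (median 6170 UMIs) and in 6.75% of photoreceptor cells (median 4728.5 UMIs), and at 1000 UMIs per cell in 87.5% and 1.8%. In cultured 1 the shares at 1000 UMIs were 70.9% and 2.25%, and in cultured 2 86.1% and 1.8%. TYR was detected at 1000 UMIs in 12.5%, 11.02% and 22.2% of RPE cells and in at most 0.05% of photoreceptor cells. GNGT1 was detected at 1000 UMIs in 18.1%, 23.6% and 11.1% of RPE cells, against 0.3%, 1.75% and 5.4% of photoreceptor cells. DCT was less specific, at 44.4%, 70.1% and 52.8% of RPE cells and 30.6%, 15.9% and 9.6% of photoreceptor cells.

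The RPE label was checked against markers of RPE and of other cells. The given markers that the rule did not use, TTR, GPNMB and TIMP3, and 8 of 10 wider ones were higher in RPE cells than in other cells of every sample, the exceptions being RPE65 and LRAT. Of all genes 9.27% were higher in this way, and of those at 30 CPM or more 38.4%. RPE65 was higher in the RPE cells of cultured 1 and cultured 2 and lower in those of transplanted 1. Melanocytes also make pigment. Of 10 melanocyte and neural crest genes, 2 were higher in RPE cells than in other cells of every sample and 6 were lower. Over all genes these shares were 9.27% and 39.4%. At least 10-fold higher in every sample was 1 of the 10, where 0.641% of all genes were. PAX3, ERBB3, FOXD3 and TFAP2B of this list had no UMI in any RPE cell. The 1 gene of the list over the floor was at least 2-fold higher in transplanted 1 than in both cultured samples. Its log2 ratio was 1.73 to cultured 1 and 2.53 to cultured 2. The 10 genes summed to 95.7, 49.8 and 63.6 CPM, against 176, 130 and 127 CPM in other cells. SOX10, a neural crest factor, was found in 4 of 72, 9 of 127 and 8 of 36 RPE cells. The 8 choroid plexus genes summed to 190, 209 and 492 CPM, against 15.1, 26.8 and 67.1 CPM in other cells. Of the 8, 5 were higher in RPE cells of every sample, beside the same 9.27% and 38.4%, and 1 was at least 10-fold higher, beside 0.641%. Among the 8, CLIC6 was at 106, 89.7 and 268 CPM and HTR2C at 0, 1.25 and 3.44 CPM. The 9 ciliary margin genes summed to 134, 304 and 199 CPM, against 161, 136 and 138 CPM in other cells. The 8 myeloid genes summed to at most 2.86 CPM, the 6 endothelial genes to at most 35.7 CPM, and the 6 erythroid genes had no UMI. Transcripts that carry only a clone name are mostly noncoding and poorly conserved in dog. Their share of a cell's UMIs had a median of 0.582%, 0.612% and 1.31% in RPE cells, against 0.940%, 0.922% and 2.77% in other cells. It lay under the 1st percentile of cultured cells of the same Set in 3, 6 and 5 RPE cells.

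RPE cells are called dividing here by RNA alone, when at least 2 of 8 mitotic genes were detected. Of these 8, MKI67 was detected in 6 of 72, 28 of 127 and 15 of 36 RPE cells, and TOP2A in 13, 37 and 16. At least 2 of 8 mitotic genes were detected in 19 of 72 RPE cells of transplanted 1 (26.4%, 16.7 to 38.1), in 47 of 127 of cultured 1 (37.0%, 28.6 to 46.0) and in 21 of 36 of cultured 2 (58.3%, 40.8 to 74.5). In other cells the shares were 10.9%, 32.2% and 9.95%. Depth moved with this count, as the dividing RPE cells had a median of 15047, 7299 and 15925 UMIs, against 5725, 4122 and 11775 UMIs in the remaining RPE cells, and its part in the shares was not tested. The 20 pigment genes summed to 4329 CPM in dividing and 6896 CPM in the remaining RPE cells of transplanted 1, 6708 and 9671 CPM in cultured 1, and 9136 and 8316 CPM in cultured 2, so the direction was not shared by cultured 2. BEST1 was lower in dividing RPE cells of all 3 samples, at 115 and 312 CPM in transplanted 1, 232 and 296 CPM in cultured 1, and 373 and 459 CPM in cultured 2.

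Transplanted 1 and cultured 1 differed at fewer genes than the 2 cultured samples did. Of 4248 genes with a mean of at least 30 CPM, 70 (1.65%) were at least 2-fold higher and 200 (4.71%) at least 2-fold lower in RPE cells of transplanted 1 than in those of cultured 1. Between the RPE cells of cultured 2 and cultured 1, 324 genes (7.63%) were higher and 338 (7.96%) lower by that fold. Cultured 2 is of another Set and software version and had 36 RPE cells, so these counts do not measure the spread among cultured samples alone. With every sample reduced to 36 RPE cells, 162 of 4332 genes were higher and 378 lower in transplanted 1 than in cultured 1. In the other kept cells of Set 1, 42 of 4707 genes (0.892%) were higher and 85 (1.81%) lower. Against both cultured samples at once, transplanted 1 was higher at 40 genes (0.942%) and lower at 80 (1.88%). The median log2 ratio of all 4248 genes to cultured 1 was -0.19, so the counts lean to lower genes: 25.9% of the genes past the fold were higher, and 51.6% with TMM scaling, which moved the median to -0.04.

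**Figure D4:**
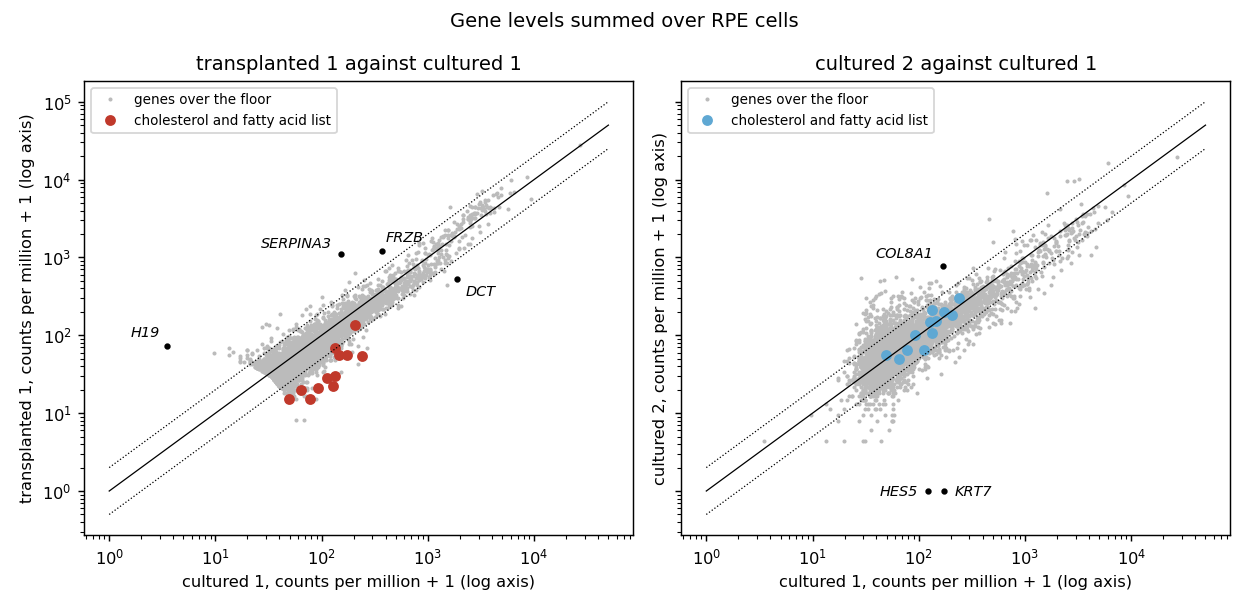
Levels of genes in the RPE cells of transplanted 1 (left) and of cultured 2 (right) against cultured 1, as CPM + 1 on log axes. Large points are the 12 cholesterol and fatty acid synthesis genes over the floor, and dotted lines mark 2-fold. In the left panel 10 of these 12 lie below the lower line, and in the right panel all 12 lie between the lines.

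Genes of cholesterol and fatty acid synthesis were lower together in transplanted 1. Of 19 listed genes 12 were over the floor; all 12 were lower in transplanted 1 than in both cultured samples, and 10 of them by at least 2-fold from each, where 1.88% of all genes were. HMGCS1, which makes the first committed sterol intermediate, was at 21.4 CPM (11.995 to 35.3) in transplanted 1, against 126 CPM (102 to 153) in cultured 1 and 148 CPM (118 to 183) in cultured 2. SQLE, squalene epoxidase, was at 52.9 CPM, against 238 and 296 CPM. For both genes the level in transplanted 1 lay under the counting intervals of both cultured samples.

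MSMO1, SCD and INSIG1 were also lowest in transplanted 1. MSMO1, a sterol oxidase, was at 28.6 CPM, against 132 and 107 CPM. SCD, which desaturates fatty acids, was at 27.1 CPM, against 111 and 63.6 CPM. INSIG1, a sterol sensor that the same pathway induces, was at 8.57 CPM, against 49.8 and 80.8 CPM, a log2 ratio of -2.41 (-4.07 to -1.29) from 6 and 40 UMIs. FDPS (134 CPM, against 207 and 182 CPM) and FDFT1 (68.6 CPM, against 132 and 213 CPM) were the 2 listed genes over the floor that did not reach 2-fold from cultured 1. The median log2 ratio of the 12 genes was -1.86 to cultured 1 and -1.85 to cultured 2, while the median of cultured 2 to cultured 1 was 0.09.

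The other kept cells of Set 1 differed in the same direction by less, with a median log2 ratio of -0.61 for these 12 genes, and photoreceptor cells with -0.67. HMGCS1 was at 16.9 CPM in other cells of transplanted 1, against 40.7 CPM in those of cultured 1. The summed level of all 19 genes was 574 CPM in RPE cells of transplanted 1, against 1753 and 1950 CPM in the cultured samples, and 418 CPM in other cells of transplanted 1, against 643 and 700 CPM. Whether RPE cells and other cells differ in this was not tested. Within transplanted 1 the sum was 507 CPM in dividing and 640 CPM in the remaining RPE cells, and within cultured 1 it was 1734 and 1774 CPM, so transplanted 1 was lower among dividing and non-dividing RPE cells alike.

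**Figure D5:**
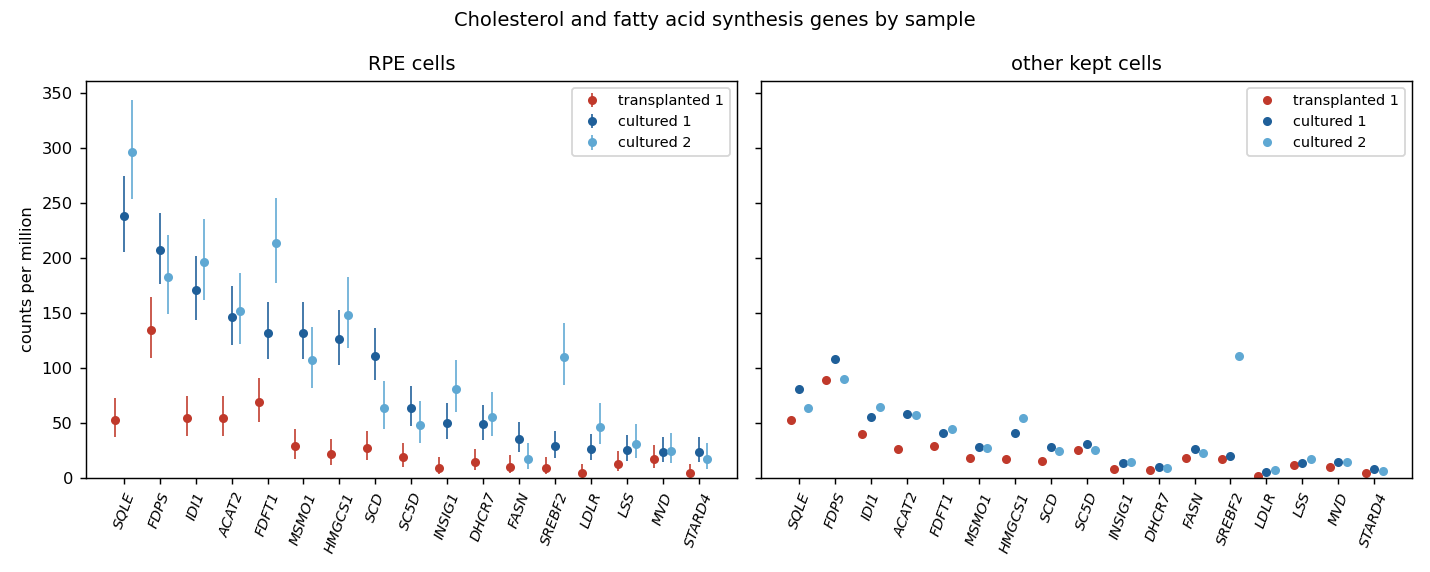
Levels in CPM of 17 of the 19 genes of the cholesterol and fatty acid synthesis list in RPE cells (left, with exact 95% Poisson intervals as bars) and in the other kept cells (right) of transplanted 1, cultured 1 and cultured 2. In RPE cells HMGCS1, SQLE and MSMO1 of transplanted 1 lie under both cultured samples by more than the intervals.

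Among pigment, visual cycle, epithelial and matrix genes few or none passed the fold. Of 14 pigment genes over the floor 0 were higher and 1, DCT, was lower by 2-fold in transplanted 1 than in cultured 1, with a median log2 ratio of -0.25. None of 9 visual cycle genes (median -0.10), 15 epithelial genes (median -0.18) or 14 matrix genes (median 0.29) passed 2-fold in either direction. The matrix genes COL18A1 and FBLN1 lay just under it, at log2 ratios of 0.998 and 0.99, and 3 matrix genes passed with TMM scaling. The all-gene median was -0.19, near the medians of the pigment, visual cycle and epithelial genes. The matrix median had the other sign, with 10 of 14 genes higher in transplanted 1, where 1506 of all 4248 genes were. To cultured 2 the matrix median was 0.17 and the all-gene median -0.09.

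Several secreted regulators were higher in transplanted 1. Of 20 over the floor, 4 were at least 2-fold higher than in cultured 1 and 1 was lower, where 1.65% and 4.71% of all genes were, with a median log2 ratio of 0.27. FRZB, a secreted Wnt antagonist, was at 1212 CPM (1131 to 1296) in transplanted 1, against 370 CPM (329 to 414) in cultured 1 and 545 CPM (487 to 609) in cultured 2, a log2 ratio of 1.71 (1.52 to 1.91) to cultured 1. The complement proteases C1R (217 CPM, against 69.7 and 82.5 CPM) and C1S (184 CPM, against 76.0 and 91.1 CPM) were likewise above both cultured samples by 2-fold. CFI, a complement inhibitor, was at 187 CPM, against 89.7 CPM in cultured 1 and 132 CPM in cultured 2. In other cells C1R was at 8.23 CPM in transplanted 1 and 4.19 CPM in cultured 1, and CFI at 74.5 and 50.4 CPM. CCL2, a chemokine that attracts monocytes, was at 67.2 CPM in transplanted 1, against 265 CPM in cultured 1 and 63.6 CPM in cultured 2, so cultured 1 alone stood apart.

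The 12 largest ratios among genes at 30 CPM or more in the higher sample were those of H19, SERPINA3, HSPA1A, SBSN, IFITM1, CP, SMOC2, TXNIP, SPHK1, FDCSP, PLBD1 and SPRY1. SERPINA3, an acute phase protease inhibitor, was at 1109 CPM (1032 to 1190) in transplanted 1, against 151 CPM (125 to 180) in cultured 1 and 205 CPM (170 to 245) in cultured 2, a log2 ratio of 2.87 (2.60 to 3.17). It was also higher in the other cells of transplanted 1, at 113 CPM, against 7.97 CPM in cultured 1. H19, an imprinted noncoding RNA, was at 72.9 CPM, against 2.49 and 3.44 CPM, from 51, 2 and 2 UMIs, with a log2 interval of 2.94 to 7.95, but stood at 160 CPM in the other cells of transplanted 1, against 21.1 CPM in those of cultured 1. IFITM1 (67.2 CPM, against 12.5 and 3.44 CPM), the ferroxidase gene CP (127 CPM, against 26.1 and 6.88 CPM) and TXNIP (32.9 CPM, against 6.23 and 5.16 CPM) were likewise at higher levels in other cells of transplanted 1, at 118, 263 and 112 CPM. The part of free RNA in these genes was not tested. The inducible chaperone HSPA1A was at 58.6 CPM, against 8.72 and 8.60 CPM.

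FDCSP, a small secreted peptide gene, was at 184 CPM in transplanted 1, against 39.8 and 6.88 CPM in the cultured samples, and at 2.61 CPM in other cells of transplanted 1. SBSN, suprabasin, was at 42.9 CPM, against 7.47 and 3.44 CPM, from 30, 6 and 2 UMIs. SMOC2, a matricellular protein, was at 139 CPM, against 28.6 CPM in cultured 1 but 194 CPM in cultured 2, so it lay between the cultured samples. PLBD1, a lysosomal phospholipase-like protein, was at 133 CPM, against 31.1 and 84.3 CPM. SPHK1, sphingosine kinase, was at 32.9 CPM, against 6.23 and 6.88 CPM, and at 18.95 CPM in other cells of transplanted 1, against 20.3 CPM in those of cultured 1. SPRY1, an inhibitor of receptor tyrosine kinase signalling, was at 60.01 CPM, against 13.7 and 10.3 CPM, and at 70.8 CPM in other cells of transplanted 1, against 26.8 CPM in those of cultured 1.

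Among the 12 largest ratios in the other direction were those of CALB1, STMN2, AC012146.1, NANOS1, HMGCS1, TFRC, INSIG1, CYP1B1, MSH3 and CDH6. CYP1B1, a cytochrome that the aryl hydrocarbon receptor induces, was at 41.4 CPM (27.8 to 59.5) in transplanted 1, against 220 CPM (189 to 255) in cultured 1 and 263 CPM (223 to 308) in cultured 2, a log2 ratio of -2.38 (-3.03 to -1.84), and its ratio in other cells was -2.39. TFRC, the transferrin receptor, was at 7.14 CPM, against 43.6 and 36.1 CPM. NANOS1, an RNA-binding protein gene, was at 14.3 CPM, against 87.2 and 101 CPM, with a log2 ratio of -2.53 in RPE cells and -0.16 in other cells. The neuronal genes CALB1 (7.14 CPM, against 67.2 and 22.4 CPM) and STMN2 (7.14 CPM, against 56.0 and 96.3 CPM) had higher levels in other cells, at 237 and 207 CPM in cultured 1. AC012146.1, MSH3 and CDH6 rested on 4 or 5 UMIs in transplanted 1. NQO1, an antioxidant enzyme of the oxidative stress list, was at 30.005 CPM, against 138 and 115 CPM.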

How the data were processed

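The matrices deposited by the authors hold raw UMI counts per gene and cell barcode, made with Cell Ranger 6.0.2 (Set 1) or 7.1.0 (Sets 2 and 3) on GRCh38 per the file headers. Libraries were 10x 3′ v3.1 after enzymatic dissociation, per the labels' protocols; whether introns were counted is not given in the sources used here. Counts of RPE cells were summed per sample and divided by the sample's RPE total (Python 3.11.15, NumPy 2.4.6, SciPy 1.17.1, pandas 2.3.3). Set numbers pair the samples, from the labels' statement of shared organoid batches. The edgeR test planned was replaced by values, since 1 transplanted sample held RPE cells; size in place of p then named the 12 largest ratios each way, up to 4 genes per list and the 20 leading RPE genes. A ratio past 2-fold counted as called, and the script was tested on simulated data. Doublets were scored with Scrublet in scanpy 1.11.5 and kept, and 2, 22 and 2 RPE cells of transplanted 1, cultured 1 and cultured 2 were among the highest scores. Members and gene lists were chosen with earlier results of these data known. Scaling alternatives used edgeR 4.0.16 and DESeq2 1.42.0 in R 4.3.3. Promoter sequences are RefSeq's. A few genes that these rules name are not reported here.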

Additional observations from a re-analysis of the deposited data

Results flagged for a closer look

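A set of RPE65-bearing cells that the pigment rule left out stood apart in transplanted 1. There 52 of 7809 kept cells outside the rule (0.666%, 95% Clopper-Pearson interval 0.498 to 0.872) had at least 2 RPE65 UMIs, with a median of 17 and a highest value of 88 UMIs. Cultured 1, of the same Set, had 5 such cells of 17899 (0.0279%), none with more than 2 RPE65 UMIs. Transplanted 2 and 3 had 1 and 8 such cells, and cultured 2 and 3 had 35 and 1. At 10 or more RPE65 UMIs, 34 cells of transplanted 1, 0 of transplanted 2, 1 of transplanted 3, 0 of cultured 1, 1 of cultured 2 and 0 of cultured 3 remained.

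These 52 cells differed from the RPE cells of transplanted 1 in more than RPE65. They held RPE65 at 2137 CPM, against 8.57 CPM in the RPE cells, and RDH10, another retinol dehydrogenase, at 245 CPM, against 21.4 CPM. TTR was at 3075 CPM in them, against 10903 CPM in the RPE cells, and TIMP3 at 210 CPM, against 1406 CPM. TYR, TYRP1 and BEST1 had no UMI in them. The neuropeptide genes OXT (308 CPM) and AVP (291 CPM) and the metallothionein gene MT1G (538 CPM) were among the genes with the largest ratios to other cells, while OXT and AVP had no UMI in the RPE cells.

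Their median mitochondrial share was 0.520%, against 5.13% in the RPE cells, and their median share of clone-named transcripts was 0.421%, against 0.582%. In 23 of the 52 that share lay under the 1st percentile of cultured cells of Set 1, against 3 of the 72 RPE cells, and in 18 of the 52 NRL and PDE6H together gave at least 2 UMIs. The 35 cells of cultured 2 were deep, with a median of 36046 UMIs, and 21 of them had such photoreceptor UMIs. No UMI of PMEL, TYRP1 or MLANA was found in 23 of these 35 cells. The highest sum of these genes was 350 in them, against 3 in the 52 cells of transplanted 1. Dog RNA could align to human genes in these files, and the species of the 52 cells was not tested. The threshold of 2 UMIs was added after the data had been seen, and 126 and 49 cells of transplanted 1 pass thresholds of 1 and 3.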

How the results depend on the processing

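With 1 transplanted sample of RPE cells, the planned edgeR and DESeq2 tests, the interaction with photoreceptor cells and fits that leave out a Set could not be fitted. Set numbers pair the shares; with no replicate block the exact p is the one printed above, and sign flips over 3 pairs cannot go below 0.25. The share difference turned to 0.0125 points when cells were thinned before the rule and to 0.106 without replicate 2, in a range of -0.169 to 0.106 over the replicates left out.

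Of genes past 2-fold against cultured 1 (70 higher, 200 lower), TMM scaling gave 131 and 123, DESeq2 size factors 127 and 127, no floor 2215 and 3028, a floor of 100 CPM 21 and 29, equal numbers of RPE cells 162 and 378, non-dividing RPE cells 124 and 306, and equal weight per cell 162 higher. With no replicate block (both cultured samples) there were 113 and 544, and without cultured replicate 1 230 and 1269. Past 2-fold against both cultured samples (40 higher, 80 lower), TMM gave 89 and 43, DESeq2 88 and 45, no floor 1026 and 1569, the 100 CPM floor 12 and 6, equal numbers 76 and 159, equal weight 66 and 125, non-dividing cells 123 lower, and, through the floor alone, no replicate block 126 and without cultured replicate 1 177 lower. The stricter and looser pigment rules, the stricter cell filter, the host filter, doublet removal and totals without mitochondrial UMIs stayed within 1.5 times. RPE cells against other cells gave 450 to 476 genes higher and 136 to 152 lower under the stricter rule, host filter and doublet removal.

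Of 53 named ratios past 2-fold, those that changed sign were, without cultured replicate 1, SMOC2 (-0.48), COL1A1 (1.82), CCL2 (0.0768), S100A10 (0.68), IFI6 (-0.81), MT-CYB (-0.59), MT-ATP6 (-0.57), MT-CO1 (-0.51) and CDKN1A (0.48); with no replicate block COL1A1 (0.0069); with equal numbers RPE65 (0.0365); and in non-dividing cells TOP2A (0.11). Of the smaller named ratios, 12 changed sign without cultured replicate 1. The causes were not tested. The cholesterol list median stayed between -1.98 and -1.28. Equal weight per cell, non-dividing cells, TMM, totals without mitochondrial UMIs and the 100 CPM floor were chosen after seeing the data. Depth limits genes under 30 CPM, where a few UMIs decide a ratio.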

Other observations

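Among 12 MHC class I genes 9 were higher in RPE cells than in other cells of every sample, where 9.27% of all genes and 38.4% of those at 30 CPM or more were. HLA-C, a class I heavy chain, was at 394 CPM in RPE cells of transplanted 1, 239 in cultured 1 and 310 in cultured 2, against 167, 95.3 and 104 CPM in other cells. The 7 such genes over the floor had a median log2 ratio of transplanted 1 to cultured 1 of 0.40 in RPE cells and 0.50 in other cells, and 6 of 7 were higher in transplanted 1 than in both cultured samples, none by 2-fold from cultured 1 on the log2(CPM + 1) scale. HLA-E lay at that limit, at 92.9 CPM, against 46.1 and 44.7 CPM in the cultured samples, and 1 gene passed with TMM scaling. SLC2A1, the glucose transporter GLUT1, was at 834, 670 and 437 CPM in RPE cells, against 127, 124 and 103 CPM in other cells, while of the 16 glycolysis and hypoxia genes 6 were higher and 6 lower in RPE cells of every sample.

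Stress lists gave few genes past 2-fold from cultured 1, where 1.65% of all genes were higher and 4.71% lower. None of 11 unfolded protein response genes passed (median -0.09), while HSP90B1, an endoplasmic reticulum chaperone, was at 909 CPM in transplanted 1, against 1651 and 1768 CPM in the cultured samples. Of 9 heat shock genes 1, HSPA1A, was higher, and of 12 oxidative stress and iron genes 2, NQO1 and GCLM, were lower (median -0.63). Of 10 acute phase and interferon genes 3 were higher (median 0.48), and IFI6 among them was at 114 CPM in transplanted 1, against 48.6 CPM in cultured 1 and 201 CPM in cultured 2. Of 14 immediate early genes 1, NR4A1, was lower (median 0.08 in RPE cells, 0.64 in other cells).

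Of 15 dedifferentiation genes over the floor, with the same shares over all genes, LGALS3 was higher in transplanted 1, at 486 CPM, against 181 and 51.6 CPM, and TAGLN, ANXA1 and S100A10 were lower than in cultured 1. ANXA1 was at 240 CPM, against 555 and 383 CPM. Of 7 pigment cell transcription factors over the floor 1, ZNF503, was lower (47.2 CPM, against 98.4 and 65.3 CPM), and of 14 phagocytosis genes 1, PROS1, a ligand of MERTK, was higher (58.6 CPM, against 21.2 and 25.8 CPM). Of 12 cell cycle genes 5 were lower (median -0.86, and -1.06 in other cells), in samples whose dividing shares of RPE cells were 26.4% and 37.0%. Of 9 glycolysis genes none passed the fold. The 13 mitochondrially encoded genes had a median of 0.70 to cultured 1, with 3 past 2-fold, and of -0.57 to cultured 2.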
